A study of Mus musculus with 6 samples.

Results

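The 4 circRNAs described here are mmu_circRNA_33862, mmu_circRNA_30227, mmu_circRNA_38328 and mmu_circRNA_34414, taken out of 14236 circRNAs on the array. They were chosen because the study lists them in its top 10 of lowered hippocampal circRNAs that passed its thresholds of fold change and p. That list pairs them with the probes ASCRP4010600, ASCRP4001381, ASCRP4001879 and ASCRP4011284. The choice rested on the difference between POCD and control on these same 6 arrays, so that difference is given below as a description. Whether the 4 pass a threshold is printed only beside the share of all circRNAs that pass it, and nothing is read from it.

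A circRNA is a closed loop of RNA, which in most cases forms when the spliceosome joins the end of an exon back to the start of an upstream exon. The loop has no free ends, which protects it from exonucleases, so circRNAs persist for long in cells that do not divide. They are abundant in brain, where many come from genes of synaptic function, and some bind microRNAs or RNA-binding proteins. The probe of a circRNA on this type of array is designed for the back-splice junction, which the linear transcript of the same gene does not contain. What the 4 circRNAs do was not analysed here, and neither were their host genes, positions or sequences.

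The RNA came from the hippocampus of male C57Bl/6 mice aged 18 months, with 3 mice labelled surgery (A/S) and 3 labelled control (C). The surgery mice, called POCD mice after the cognitive dysfunction that the operation models, had an open tibial fracture with intramedullary fixation under isoflurane, with local lidocaine and tetracaine afterwards. Operation, anesthetic and analgesic therefore came together in that group, and the handling of the controls is not given in the sources used here. Both groups were sampled on day 3, after behavioral testing, and each hippocampal RNA was labelled with Cy3 and hybridized to 1 array. The probes carry no gene names in the files, so the tissue could not be checked against marker genes. Whole hippocampus was used, and fewer cells that hold a circRNA cannot be told apart from less of that circRNA per cell.

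Levels are given as scaled log2 intensity, which is the log2 of the background-subtracted signal of the probe minus the 75th percentile of the circRNA probes on the same array. A value of 0 is thus as bright as the probe at the 75th percentile, and a difference of 1 is a doubling. Per array, 98.3% to 99.5% of the circRNA probes exceeded background clearly. The 4 probes were well above background on all 6 arrays, none was saturated, and no spot of theirs was marked as uneven or as an outlier. Probes with 10 spots each gave a median SD of 0.067 between the spots of a probe on 1 array, and the median SD between replicate arrays of a group was 0.21 over the 14144 circRNAs tested. With 3 arrays in each group, the number of arrays limits the precision of every value below.

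mmu_circRNA_33862 was at 2.80, 1.37 and 2.62 in control replicates 1, 2 and 3, and at 0.37, 1.43 and 0.23 in POCD replicates 1, 2 and 3. The groups overlapped, because control replicate 2 lay below POCD replicate 2. The gap between the groups, -0.058, was smaller in size than the 0.067 found above as the spread between replicate spots on 1 array. That spread leaves out the variation between arrays, which a gap between 2 arrays also holds. The mean was 2.26 ± 0.78 (SD, n = 3) in control and 0.68 ± 0.66 (SD, n = 3) in POCD, a log2 difference of -1.59 (standard error 0.42). In the signal before the log, the 3 controls ranged from 821 to 2110 and the POCD arrays from 313 to 922.

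mmu_circRNA_30227 was at 2.56, 1.62 and 2.84 in control replicates 1, 2 and 3, and at 0.51, 1.51 and 0.46 in POCD replicates 1, 2 and 3. The groups did not overlap, with 0.10 between control replicate 2 and POCD replicate 2, which again were the nearest arrays. The control mean was 2.34 ± 0.64 (SD, n = 3) and the POCD mean 0.83 ± 0.59 (SD, n = 3), which gave a log2 difference of -1.51 (standard error 0.37). The signal ranged from 971 to 2292 in control and from 367 to 976 in POCD, so before scaling these arrays did overlap.

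mmu_circRNA_34414 was by far the brightest of the 4 probes. It was at 6.84, 5.95 and 7.61 in control replicates 1, 2 and 3, and at 4.67, 5.77 and 4.75 in POCD replicates 1, 2 and 3. The groups were separated by 0.18, once more between both replicates numbered 2. Its log2 difference of -1.73 was the largest of the 4 on this scale (standard error 0.42), with 6.80 ± 0.83 (SD, n = 3) in control and 5.07 ± 0.61 (SD, n = 3) in POCD. Its signal spanned 19620 to 62412 in control and 7185 to 18727 in POCD.

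mmu_circRNA_38328 had another shape. Its control replicates 1, 2 and 3 lay close together at 1.92, 1.42 and 1.81, while POCD replicates 1, 2 and 3 were spread over -0.52, 0.84 and 0.35. The groups were 0.58 apart, the widest gap of the 4. The mean was 1.72 ± 0.26 (SD, n = 3) in control and 0.23 ± 0.69 (SD, n = 3) in POCD, a log2 difference of -1.49 (standard error 0.32). POCD replicate 1, lowest here, was not the lowest POCD array for mmu_circRNA_33862 or mmu_circRNA_30227.

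**Figure D1:**
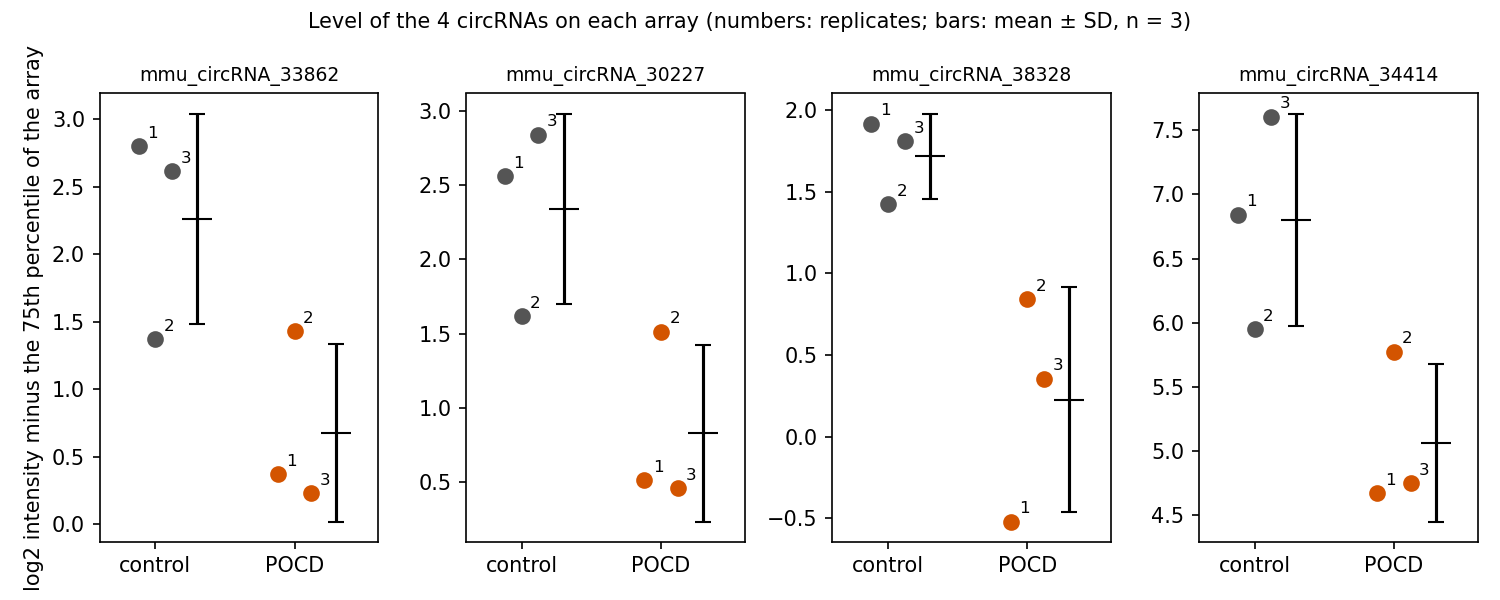
Scaled log2 intensity of each of the 4 circRNAs (vertical axis, with its own range in each panel) in control and POCD; a point is 1 array with its replicate number, and the bar beside it the mean ± SD of 3 arrays. In mmu_circRNA_33862, mmu_circRNA_30227 and mmu_circRNA_34414 control replicate 2 and POCD replicate 2 lie within 0.18 of each other, and in mmu_circRNA_38328 the groups are 0.58 apart.

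On the linear scale the 4 circRNAs were 3.00, 2.85, 3.33 and 2.81 times lower in POCD for mmu_circRNA_33862, mmu_circRNA_30227, mmu_circRNA_34414 and mmu_circRNA_38328. The 4 log2 differences spanned less than the smallest of their standard errors, so their order carries no weight. All 4 passed the thresholds of the study (1.5-fold, with p below 0.05 before adjustment) in limma, which fits a linear model to every circRNA and pools the estimates of spread. Of the 14144 circRNAs tested, 4.82% were called lower in this way, and since the same contrast chose the 4, nothing is read from that count. At these thresholds the methods' t-test, applied to the scaled intensities, called 3 of the 4 lower but not mmu_circRNA_33862. It called 164 of 14125 circRNAs lower, and nothing is read from that count either. The groups did not overlap for 3 of the 4, and every POCD array lay below every control array in 11.0% of the circRNAs tested. Over all circRNAs tested the median log2 difference was -0.032. After Benjamini-Hochberg adjustment in limma, 0 circRNAs passed an adjusted p of 0.05, while 2048 were below 0.05 before adjustment. The methods' t-test gave 1139 before adjustment and 0 after it. The limma counts depended on single arrays. Without control replicate 2, 3569 were below 0.05 before adjustment and 560 after it, without control replicate 3 the counts were 726 and 0, without control replicate 1 they were 1106 and 0, and without POCD replicate 2 or POCD replicate 3 the count after adjustment was 1.

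Among the circRNAs tested, 59 had a larger decrease than mmu_circRNA_34414, 81 than mmu_circRNA_33862, 88 than mmu_circRNA_30227 and 91 than mmu_circRNA_38328. For each of the 4, no more than 0.64% of the circRNAs tested had a larger one with all 6 arrays. Counted from the largest decrease, mmu_circRNA_38328 went from rank 92 to 181 without POCD replicate 1, 147 without control replicate 2, 58 without control replicate 1 and 51 without POCD replicate 3. mmu_circRNA_34414 went from rank 60 to 28 without control replicate 1 and 96 without control replicate 3, and mmu_circRNA_30227 from rank 89 to 56 without control replicate 1. The study ordered its list on the deposited table of normalized log2 values. On that table, 36 of 14236 circRNAs, 0.253%, were called lower at the same thresholds with the methods' t-test. By size of the difference, mmu_circRNA_33862, mmu_circRNA_30227 and mmu_circRNA_38328 had ranks 1, 2 and 3 of these 36 and mmu_circRNA_34414 had rank 6. The last circRNA inside the list of 10, mmu_circRNA_29984, was at -1.07 on the deposited scale, and the next of the 36 was at -1.02. Larger decreases that missed the p threshold are not in the list. By size of the decrease alone, mmu_circRNA_33862 had rank 62 and mmu_circRNA_30227 rank 68 of the 14236. On that count mmu_circRNA_38328 had rank 74, mmu_circRNA_34414 rank 85 and mmu_circRNA_29984 rank 118.

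**Figure D2:**
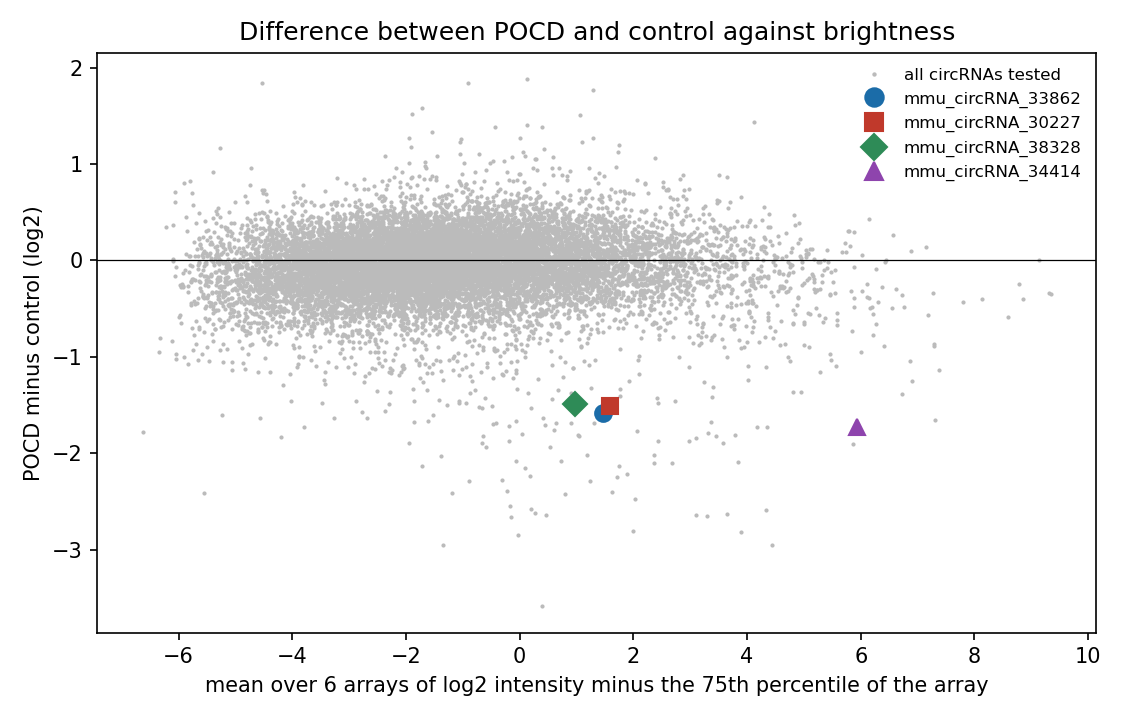
Log2 difference of POCD minus control (vertical axis) against the mean scaled log2 intensity over 6 arrays (horizontal axis) for the 14144 circRNAs tested, in grey, and for the 4, in color. The 4 sit between -1.49 and -1.73, mmu_circRNA_34414 near the bright end and the others together at mid to high brightness.

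On the deposited values the differences were -1.54 for mmu_circRNA_33862, -1.47 for mmu_circRNA_30227, -1.40 for mmu_circRNA_38328 and -1.30 for mmu_circRNA_34414. mmu_circRNA_34414, the brightest of the 4, thus had the smallest difference there and the largest on the scaled intensities. Its control SD was 0.47 on the deposited values and 0.83 on the scaled intensities. For mmu_circRNA_33862 the overlap of the groups was gone on the deposited values, where control replicate 2 at 9.66 was above POCD replicate 2 at 9.65. That gap of 0.0090 was smaller than the SD between spots of a probe on 1 array.

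The spread within groups of the 4 was wide for this series. The SD pooled over both groups was 0.72 for mmu_circRNA_33862, 0.62 for mmu_circRNA_30227, 0.52 for mmu_circRNA_38328 and 0.73 for mmu_circRNA_34414, against the median of 0.21. These were above the SD of 96.2% to 98.5% of the circRNAs tested. Of the 4, only mmu_circRNA_38328 had a spread that came mainly from 1 group, with an SD of 0.69 in POCD and 0.26 in control. The 6 other lowered circRNAs of the same list had pooled SDs between 0.29 (mmu_circRNA_44559) and 0.73 (mmu_circRNA_45921). A wide spread was thus not particular to the 4.

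The 4 circRNAs deviated the same way on the arrays numbered 2. With the group mean subtracted, control replicate 2 was below 0 in all 4, at -0.89 for mmu_circRNA_33862, -0.72 for mmu_circRNA_30227, -0.29 for mmu_circRNA_38328 and -0.85 for mmu_circRNA_34414. POCD replicate 2 was above 0 in all 4, at 0.75, 0.68, 0.62 and 0.71 in the same order. The remaining arrays separated mmu_circRNA_38328 from the other 3. Its POCD replicate 1 lay at -0.75 and its POCD replicate 3 at 0.13, whereas for the others both arrays lay between -0.45 and -0.31.

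Over the deviations of the 6 arrays from their group means, Pearson's r was 0.97 between mmu_circRNA_33862 and mmu_circRNA_30227, 0.97 between mmu_circRNA_30227 and mmu_circRNA_34414, and 0.89 between mmu_circRNA_33862 and mmu_circRNA_34414. Between mmu_circRNA_38328 and each of the other 3 it was between 0.67 and 0.71. These 3 values rested on single arrays: without POCD replicate 1 they were 0.99, 0.95 and 0.84 with mmu_circRNA_33862, mmu_circRNA_30227 and mmu_circRNA_34414, and without POCD replicate 2 each was 0.43. Spearman's rho was between 0.60 and 0.94 over the 6 pairs. Exact permutation of the arrays within groups (two-sided, 36 arrangements, smallest possible p = 0.028) gave p between 0.056 and 0.28 for r and between 0.083 and 0.28 for rho. After Benjamini-Hochberg adjustment over the 6 pairs, the exact permutation p lay between 0.22 and 0.28 for r and between 0.25 and 0.28 for rho. Without the 2 arrays farthest from the median, r was between 0.71 and 0.94 for the 3 pairs without mmu_circRNA_38328 and between 0.50 and 0.65 for its 3 pairs. None of the 6 relations passed the test, which with 36 arrangements no pair could pass on its own after the adjustment. The test therefore cannot decide whether a given pair varies together, and the points share the arrays and their scaling.

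**Figure D3:**
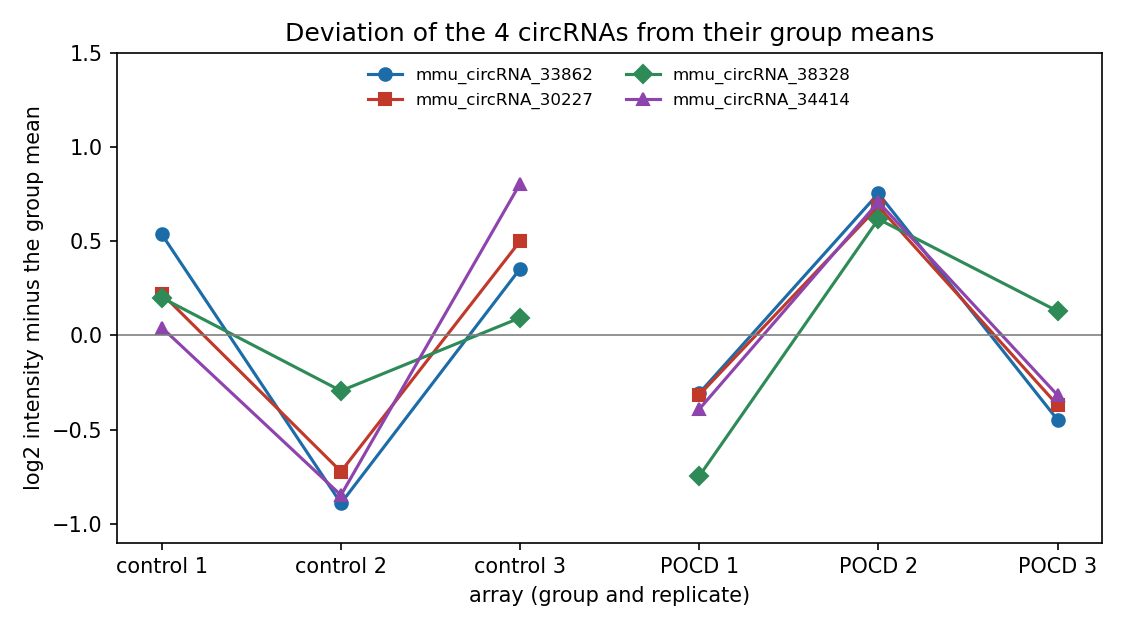
Scaled log2 intensity minus the mean of its own group (vertical axis) on the 6 arrays (horizontal axis) for the 4 circRNAs, with lines joining the arrays of a group only to guide the eye. All 4 are below 0 in control replicate 2 and above 0 in POCD replicate 2, and mmu_circRNA_38328 stands apart in POCD replicates 1 and 3.

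A like order of the arrays was found on the main component of the circRNAs at large. The first principal component of the circRNAs tested, computed without the 4, held 62.2% of the variance. Its sign is arbitrary and was set to make control replicate 1 positive, so the reversed order describes the component equally well. With that sign, the component placed control replicates 1 and 3 at 37.4 and 33.5, POCD replicate 2 at -4.53, control replicate 2 at -8.36, and POCD replicates 1 and 3 at -17.4 and -40.6. The values of mmu_circRNA_33862 put the 6 arrays in exactly this order, which 247 of 14124 other circRNAs (1.75%) also had. The orders of the other 3 differed from it by exchanges between neighbouring arrays. mmu_circRNA_30227 shared its own order with 182 others (1.29%), mmu_circRNA_34414 with 133 (0.94%) and mmu_circRNA_38328 with 57 (0.40%). The part of this array-wide component in the differences between the groups was not tested.

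Many circRNAs ran parallel or opposite to the 4 over the 6 arrays. Here r was taken over the scaled values, with the difference between the groups left in. The lowered circRNAs of the study's list were chosen by that difference, so a high r among them was partly set by the choice. Nothing is read from it. As a description across circRNAs, which are not independent replicates and share the arrays, r was above 0.95 with 411 of 14124 others for mmu_circRNA_33862, 334 for mmu_circRNA_30227, 251 for mmu_circRNA_34414 and 90 for mmu_circRNA_38328. It was below -0.95 with 319, 206, 109 and 35 others in the same order. Among the other circRNAs that the study lists by name, mmu_circRNA_45921 was most like mmu_circRNA_33862 (r = 0.990) and mmu_circRNA_30227 (r = 0.995). mmu_circRNA_30227 itself was most like mmu_circRNA_34414 (r = 0.991), and mmu_circRNA_22673 was most like mmu_circRNA_38328 (r = 0.996). Outside the 4, the probe with the pattern most like their mean was ASCRP4010748, with r of 0.999 over 6 arrays. It was at -0.13, -0.38 and -0.032 in control replicates 1, 2 and 3 and at -0.77, -0.46 and -0.74 in POCD replicates 1, 2 and 3, a log2 difference of -0.48. Next was ASCRP4004782, with r of 0.996 and a log2 difference of -0.75. Both thus had the shape of the 4 at a smaller size. No circRNA name is paired with these 2 probes here.

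By rank of the signal on an array, where 1 is the brightest of the 14236 circRNA probes, mmu_circRNA_34414 was between 17 and 38 on the control arrays and between 53 and 144 on the POCD arrays. It was among the brightest 1.01% on all 6 arrays. mmu_circRNA_33862 was between 652 and 1548 in control and between 1483 and 3141 in POCD. mmu_circRNA_30227 was between 630 and 1301 in control and between 1418 and 2717 in POCD. mmu_circRNA_38328 was between 1154 and 1498 in control and between 2182 and 4633 in POCD. Ranks do not depend on the scaling of an array, and on them too the groups overlapped for mmu_circRNA_33862, and not for the other 3. The share of all circRNAs without overlap on ranks was not computed, so nothing is read from that count. How bright a probe is depends on the probe as well as on its circRNA, so a rank is no measure of how much of a circRNA is present relative to another.

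The 6 other lowered circRNAs of the same list were close to the 4 in size, with log2 differences between -1.66 and -1.14. Their groups did not overlap, with gaps between 0.0042 and 0.80. The smallest, of mmu_circRNA_45921, was below the 0.067 between replicate spots on 1 array. Between the 4 and these 6 no test was made, because both were chosen by the same contrast.

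Each of the 4 circRNAs has 1 spot on an array of 192 rows and 82 columns. mmu_circRNA_33862 lies in row 29 and column 2, mmu_circRNA_30227 in row 68 and column 1, mmu_circRNA_34414 in row 15 and column 79, and mmu_circRNA_38328 in row 152 and column 25. The share of all circRNA probes that lie as near to a side edge was not computed, so nothing is read from these positions. The 8 circRNA spots nearest to each had a median shift between POCD and control of -0.16 beside mmu_circRNA_33862, -0.13 beside mmu_circRNA_30227, -0.13 beside mmu_circRNA_34414 and 0.099 beside mmu_circRNA_38328. Beside the other circRNAs that the study lists, this shift lay between -0.28 (mmu_circRNA_44559) and 0.12 (mmu_circRNA_25474). With the shifts beside the 4 subtracted on each array, their log2 differences were -1.43, -1.38, -1.60 and -1.59. The gap of mmu_circRNA_30227 then became -0.021, an overlap, so that the groups of 2 of the 4 did not overlap. The shifts were subtracted only for circRNAs that the study lists, so no share of all circRNAs stands beside that count.

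The 6 arrays shared a slide and a scan. The 3 controls and POCD replicate 1 lay in row 1 of the slide, and POCD replicates 2 and 3 in row 2, which held no control. Within row 1, POCD replicate 1 was 1 array against 3. Its difference from the control mean was -1.89 for mmu_circRNA_33862, -1.83 for mmu_circRNA_30227, -2.13 for mmu_circRNA_34414 and -2.24 for mmu_circRNA_38328. In row 2, the difference from the same mean was -0.83, -0.83, -1.03 and -0.88 for POCD replicate 2 and -2.03, -1.88, -2.05 and -1.36 for POCD replicate 3, in the same order. For POCD replicates 2 and 3 the row and the group cannot be told apart, and the part of the row in the differences was not tested.

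**Figure D4:**
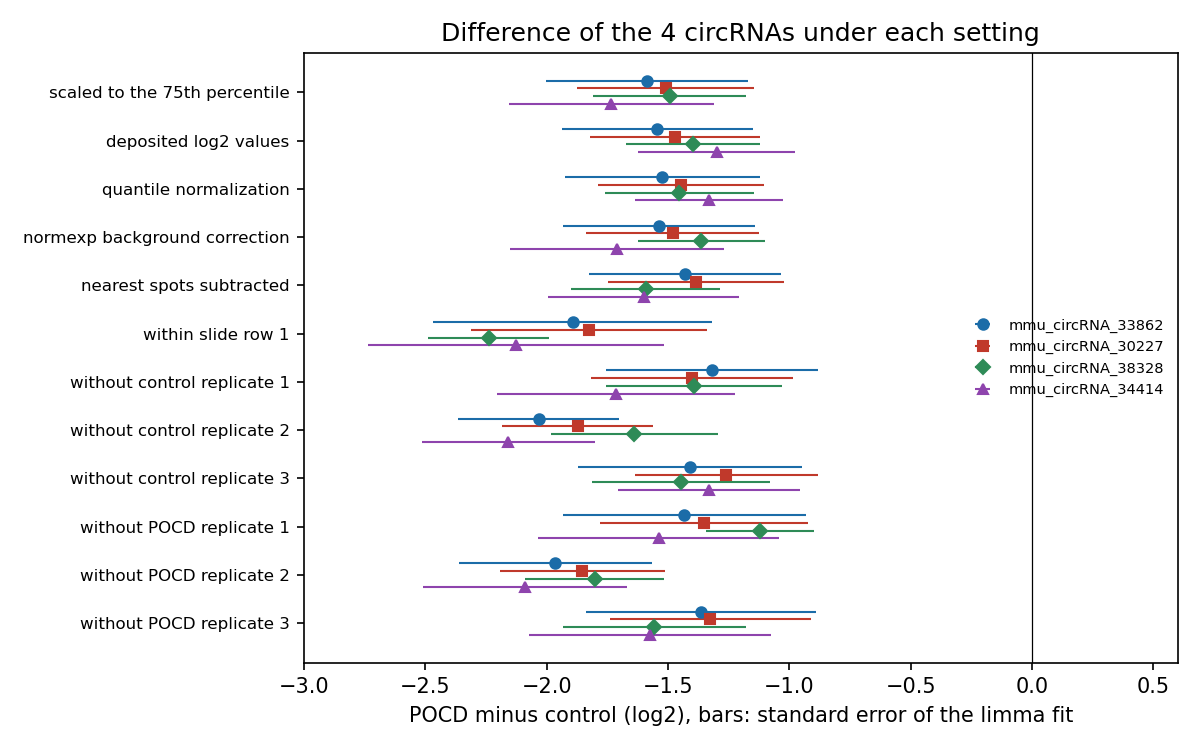
Log2 difference of POCD minus control (horizontal axis, bars are the standard error from limma) for the 4 circRNAs under each setting or with 1 array left out (vertical axis). All values lie below 0, the largest in size being -2.24 for mmu_circRNA_38328 within slide row 1 and the smallest -1.12 for mmu_circRNA_38328 without POCD replicate 1.

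Leaving out 1 array at a time moved the 4 in different ways. Without control replicate 2 the log2 difference of mmu_circRNA_33862 went to -2.03 and that of mmu_circRNA_34414 to -2.16, and the groups of all 4 were then apart. Every POCD array then lay below every control array in 3771 of 14143 circRNAs tested, so nothing is read from that count. Without POCD replicate 2 they were -1.96 and -2.09. Without control replicate 3, mmu_circRNA_30227 was at -1.26 and mmu_circRNA_34414 at -1.33. mmu_circRNA_38328 moved most without POCD replicate 1, to -1.12.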

How the data were processed

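Hippocampal RNA of 3 POCD and 3 control mice, grouped by their treatment labels, was measured on 6 arrays with 1 colour. Per the file headers, the deposited spot intensity comes from Agilent Feature Extraction 11.0.1.1 with its background subtracted and no step between arrays. The deposited log2 values followed each array closely (Spearman's rho of 0.999 or above across probes), but how they were normalized is not stated.

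Here, log2 intensity was taken relative to the 75th percentile over circRNA probes, without spots flagged for unevenness or as outliers. Probes well above background on 3 or more arrays entered limma version 3.58.1 (R version 4.3.3), which was tested on simulated data. Deviations from group means were compared by exact permutation within groups. Unequal labeling could shift such a scale, so other normalizations were tried, among them normexp with an offset of 50, besides other percentiles, filters, weights and tests, each array left out, the slide row and the replicate block.

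Names come from the list of the study. Those printed are the 4 circRNAs, listed ones set beside them, and the 2 probes most like their mean. Members, lists and tests were chosen with earlier results of these data known. Plots used matplotlib version 3.10.9.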

Additional observations from a re-analysis of the deposited data

How the results depend on the processing

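The log2 differences of the 4 circRNAs kept their sign under all alternatives run, and moved by less than the SD between replicates except for mmu_circRNA_38328, which was at -2.24 within slide row 1. With each array left out they ranged from -2.03 to -1.32 for mmu_circRNA_33862, from -1.87 to -1.26 for mmu_circRNA_30227, from -1.80 to -1.12 for mmu_circRNA_38328 and from -2.16 to -1.33 for mmu_circRNA_34414. The number of circRNAs called lower, 682, was 338 on the deposited values, 295 with normexp, 164 with the methods' t-test and 36 with the methods' t-test on the deposited values. Leaving out an array gave between 400 (without control replicate 3) and 1303 (control replicate 2 left out). The number with every POCD array below every control array, 1549, was 4894 within slide row 1, which has 1 POCD array. It ranged from 1699 to 3771 with an array left out, fewer arrays being easier to keep apart, and was 2656 without POCD replicate 1, 2531 without POCD replicate 2 and 3771 without control replicate 2. For the other changes the cause was not tested. Under all alternatives run, the correlations between deviations stayed above 0, and the median rank of brightness moved by less than its SD over arrays. With an array left out, 12 arrangements remain and the smallest possible exact permutation p is 0.083, so those tests say nothing about the correlations. The split of all calls was 682 lower and 257 higher, against 508 and 366 with quantile normalization, 338 and 221 on the deposited values, and 36 and 88 with the methods' t-test on those.

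In the replicate block, 734 circRNAs were called lower, 0 passed an adjusted p of 0.05 in limma, and the differences of the 4 were unchanged at -1.59, -1.51, -1.49 and -1.73. Whether the numbers pair the samples is not known. The deviations of equally numbered arrays had correlations of 0.011, -0.55 and -0.23. With 3 arrays in a group, whose deviations sum to 0, these values cannot decide it. Subtracting the nearest spots was chosen after seeing the data. Slide and scan as a block were not run, as there was 1 of each, and within slide row 1 no correlation of deviations could be computed for the POCD array. Signal over background does not limit the 4.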
